A study of Mus musculus with 77 samples.

Results

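The 69 genes described here encode, with few exceptions, nuclear subunits of the 5 complexes of the mitochondrial respiratory chain, measured in the livers of male B6C3F1 mice. They were all array IDs whose names fit the patterns of complex I (Ndufa, Ndufb, Ndufc, Ndufs, Ndufv), complex II (Sdha to Sdhd), complex III (Uqcr), complex IV (Cox4 to Cox8) and complex V (Atp5), and whose signal passed detection (p under 0.05) on 3 or more arrays. The names matched 75 of 18138 IDs, and 69 of these were detected often enough: 31 of complex I, 3 of complex II, 5 of complex III, 14 of complex IV, 13 of complex V and 3 that the pattern caught although they are no subunits (Atp5s, Atp5sl and Cox4nb). Ndufa4, first assigned to complex I, was counted under complex IV, and so was Cox7a2l, a 7a-related protein that joins complexes III and IV. The whole table held 11324 genes that passed the same detection rule.

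Mice were exposed for 7 days and the arrays give 1 value per gene for 77 samples in 18 groups. DEHP, di(2-ethylhexyl) phthalate, was given at 750, 1500, 3000 and 6000 ppm. BBP, n-butyl benzyl phthalate, was given at 1500, 3000, 6000 and 12000 ppm, and DNOP, di-n-octyl phthalate, at 1250, 2500, 5000 and 10000 ppm. Phenobarbital (PB), a drug known to act on the liver through the receptor CAR, was given at 75, 150, 300 and 600 ppm. The labels write the phthalate doses with the letter K and no unit, read here as the ppm values above, and name no medium. There were 4 samples per group, except 3 at 10000 ppm DNOP, with 4 PB controls and 10 phthalate controls as the references. The labels also carry a number whose meaning they do not give. Samples of each PB dose share it in pairs and some samples of both control groups share it, while each phthalate dose sample has its own. A PB dose may thus rest on fewer separate sources than its 4 samples. No source used here gives the age of the mice or says which samples are separate animals, so p-values measure the spread between these samples. The hepatocyte markers Alb, Apoa1, Fgb, Serpina1a, Tat and Ttr were tested in every group, with at least 5 of the 6 detected in each. Arrays detected between 36.88% and 46.64% of genes. The share was 40.51% to 45.87% at the PB doses, against 36.88% to 41.15% in the dim PB controls, and 41.95% to 45.37% in the phthalate controls.

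The respiratory chain carries electrons from NADH (complex I) and succinate (complex II) through ubiquinone, complex III and cytochrome c to oxygen at complex IV, and complex V, the ATP synthase, uses the resulting proton gradient to make ATP. Most of its subunits are encoded in the nucleus and imported. In hepatocytes the chain takes up the electrons set free by fatty acid oxidation, whose enzymes are induced by the nuclear receptor PPARA in rodents given peroxisome proliferators such as DEHP. The series compares such phthalates, and here the question is how far the genes of the chain moved with each compound and dose.

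Promoter windows of 5 of the genes are shown, because the results turn on them: the 3 that were called at 3 doses of DEHP (Ndufb3, Ndufa5 and Cox6b2), and a pair encoding the same ring subunit c of ATP synthase, of which one was called under DEHP (Atp5g3) and the other under phenobarbital (Atp5g2). Each window runs from 250 bases before to 50 bases after the gene's start in the RefSeq table of GRCm38.p6. Of the 69 genes, 59 had a window. Capitals mark a match to the palindromic motif of NRF1 on either strand, the site of a factor known to act on many genes of the chain. The windows lie at chr1:58586147-58586446 (plus strand), chr6:24527477-24527776 (minus strand), chr7:4753045-4753344 (minus strand), chr15:102670998-102671297 (minus strand) and chr2:73911277-73911576 (minus strand).
Ndufb3: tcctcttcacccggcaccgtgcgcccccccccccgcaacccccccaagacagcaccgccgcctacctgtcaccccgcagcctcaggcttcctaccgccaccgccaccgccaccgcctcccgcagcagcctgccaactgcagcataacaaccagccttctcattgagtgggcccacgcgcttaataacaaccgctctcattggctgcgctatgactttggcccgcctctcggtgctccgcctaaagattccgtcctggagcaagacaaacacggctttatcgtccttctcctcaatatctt
Ndufa5: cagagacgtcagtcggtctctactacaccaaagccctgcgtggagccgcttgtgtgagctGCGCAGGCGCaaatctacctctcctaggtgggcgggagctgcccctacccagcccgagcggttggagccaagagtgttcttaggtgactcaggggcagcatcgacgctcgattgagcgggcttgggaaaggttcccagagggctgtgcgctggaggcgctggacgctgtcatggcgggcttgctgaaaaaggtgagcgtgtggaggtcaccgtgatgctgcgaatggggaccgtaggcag
Cox6b2: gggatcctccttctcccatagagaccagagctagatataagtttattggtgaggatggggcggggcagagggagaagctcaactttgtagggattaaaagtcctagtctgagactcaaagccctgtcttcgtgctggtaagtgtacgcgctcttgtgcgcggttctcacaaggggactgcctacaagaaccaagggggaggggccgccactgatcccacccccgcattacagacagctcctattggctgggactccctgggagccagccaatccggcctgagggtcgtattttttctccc
Atp5g2: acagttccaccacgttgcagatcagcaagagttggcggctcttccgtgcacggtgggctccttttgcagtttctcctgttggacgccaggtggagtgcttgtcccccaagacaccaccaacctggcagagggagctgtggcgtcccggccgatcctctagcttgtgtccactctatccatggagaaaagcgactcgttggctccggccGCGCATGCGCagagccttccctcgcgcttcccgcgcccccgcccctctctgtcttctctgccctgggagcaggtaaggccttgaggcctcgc
Atp5g3: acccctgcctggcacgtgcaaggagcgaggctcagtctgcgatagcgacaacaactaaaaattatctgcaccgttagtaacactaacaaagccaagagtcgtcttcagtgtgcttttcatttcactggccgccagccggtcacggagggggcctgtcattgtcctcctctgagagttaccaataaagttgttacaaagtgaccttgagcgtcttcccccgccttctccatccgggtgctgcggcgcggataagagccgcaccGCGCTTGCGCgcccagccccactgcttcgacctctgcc

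NRF1's motif was matched in 12 of the 59 windows (20.3%), against 1293 of all 27025 promoter windows (4.78%). The motif AAGATGGC of YY1, searched on both strands, was matched in 10 of 59 (16.9%), against 2.88% of all windows. CCGGAAGT, a motif of ETS factors such as GABPA, was matched in 4 of 59 (6.78%), against 4.0%. The direct repeat that PPARA binds with RXR was matched in 0 of 59, against 0.0444% of all. Of the motifs searched, the windows of Ndufb3 and Cox6b2 held none, whereas Ndufa5, Atp5g2 and Atp5g3 each held that of NRF1. Ndufs6 held motifs of NRF1 and YY1 and Atp5h of NRF1 and ETS factors, in both without overlap. Ndufa5 had a second window, which is not shown. A match describes letters in a window and is no measure of binding.

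Of the 69 genes, 57 were detected on all 77 arrays. The 6 name matches left out were Atp5k, detected on 1 array, and Cox4i2, Cox7b2, Cox8c, Ndufs1 and Uqcrq, detected on none. Just inside the rule lay Cox8b with 3 arrays, Cox6a2 with 6, Uqcrfs1 with 7, Sdhc with 16 and Cox6b2 with 19, and just outside it Atp5k. Cox6a2, Cox7a1 and Cox8b are the heart and muscle isoforms of complex IV subunits, and Cox6b2 is a testis isoform. Sdhc had a median signal of 1221 although it passed detection on 16 arrays only, with detection p up to 0.4826, and Atp5j had 2542 with 55 arrays. The cause of those high detection p-values was not tested. Levels below are log2 intensities after background correction and quantile normalization, and differences between groups are log2 changes. A level of one gene cannot be set against that of another on these arrays. In these livers, fewer mitochondria-rich cells and less RNA per cell cannot be told apart.

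DEHP raised a few genes of complexes I, IV and V, and nothing was called lower. Of the 69 genes, 3 were called higher at 1500 ppm, 6 at 3000 ppm and 5 at 6000 ppm (limma, Benjamini-Hochberg adjusted p under 0.05 over all 11324 genes, no fold threshold, n = 4 against 10). At 750 ppm 0 passed. Among all genes tested, 2.53% were called higher at 1500 ppm, 4.45% at 3000 ppm, 5.26% at 6000 ppm and 1.14% at 750 ppm. The members' shares called in either direction were 4.348%, 8.696% and 7.246% at 1500, 3000 and 6000 ppm, against 4.57%, 8.45% and 9.42% of all genes, so the share called was near the background. At 750 ppm, 7 of 69 had an unadjusted p under 0.05, against 12.9% of all genes. The median log2 change of the 69 genes was 0.02, 0.17, 0.22 and 0.09 from the lowest to the highest dose, while that of all genes tested lay between -0.01 and 0.00. At 3000 ppm 59 of 69 changes were above 0 (85.51%), against 47.09% of all genes.

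**Figure D1:**
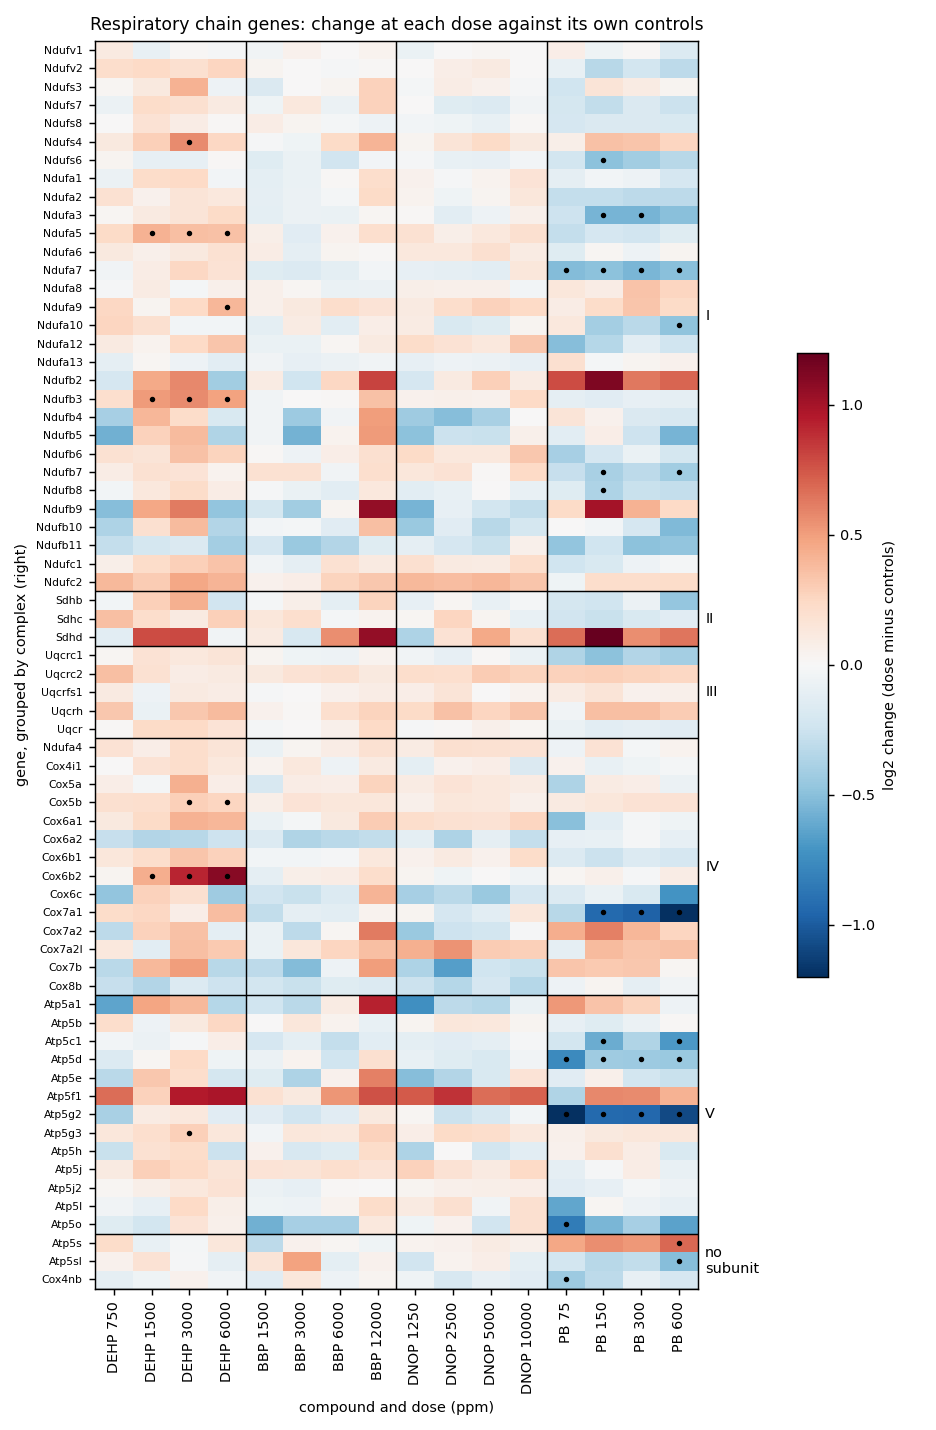
Heat map of the log2 change (dose minus its own controls) of 68 of the genes (rows, grouped by complex) at the 16 doses in ppm (columns), with a black dot where the adjusted p was under 0.05 over all genes. Dots in the DEHP columns are all on higher genes and number 3, 6 and 5 at 1500, 3000 and 6000 ppm, and there is none in the BBP and DNOP columns.

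Ndufb3, an accessory subunit of the membrane arm of complex I, was called at 3 of the 4 DEHP doses. It had levels of 10.75, 10.9, 10.98 and 11.15 at 3000 ppm DEHP, against 10.16 to 10.69 with a median of 10.34 in the phthalate controls. All 4 treated samples lay above the controls. The log2 change was 0.57 (95% interval 0.33 to 0.81, adjusted p = 0.0005226), a 1.486-fold level. At 1500 ppm it was 0.51 (adjusted p = 0.003802) and at 6000 ppm 0.48 (adjusted p = 0.003839), with 1 treated sample in each of those groups inside the control range. At 750 ppm the change was 0.2 with an interval from -0.04 to 0.44.

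Ndufa5, an accessory subunit of the matrix arm of complex I, was called at the same 3 doses. Its levels at 1500 ppm DEHP were 10.68, 10.79, 10.82 and 10.84, against 10.13 to 10.53 in the phthalate controls. The groups did not overlap, and the log2 change was 0.42 (0.21 to 0.63, adjusted p = 0.007686). It was 0.36 at 3000 ppm (adjusted p = 0.0208) and 0.35 at 6000 ppm (adjusted p = 0.0234). Ndufs4, a further accessory subunit of complex I, was called at 3000 ppm alone, with a change of 0.57 (0.2 to 0.94, adjusted p = 0.04288). Its 4 samples at 3000 ppm, 10.43 to 10.62, lay above all 10 controls, 9.74 to 10.37. Ndufa9, which sits in the matrix arm, was called at 6000 ppm, with a change of 0.40 (0.15 to 0.66, adjusted p = 0.0293) and overlapping groups.

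In complex IV, Cox5b, a nuclear subunit of cytochrome c oxidase that is expressed widely, had levels of 12.72, 12.75, 12.89 and 12.98 at 3000 ppm DEHP, against 12.22 to 12.67 in the phthalate controls. The groups did not overlap at 3000 ppm, where the log2 change was 0.29 (0.12 to 0.45, adjusted p = 0.018), nor at 6000 ppm, where it was 0.26 (0.10 to 0.43, adjusted p = 0.03169). In complex V, Atp5g3, one of the genes for ring subunit c, had a change of 0.29 at 3000 ppm (0.12 to 0.47, adjusted p = 0.02087). Its 4 samples there lay between 13.7 and 13.81, inside the range of the controls (13.21 to 13.78) except for 1. The other gene for the same protein, Atp5g2, had a change of 0.13 at that dose (-0.15 to 0.41, adjusted p = 0.6693).

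Cox6b2, the testis isoform of subunit 6b, was called at 3 doses of DEHP, from a signal near background. Its linear signals at 6000 ppm DEHP were 105.9, 176.6, 218.7 and 146.1, against 87.68 to 118.5 in the phthalate controls. Of those signals 3 lay above every control, as did all 4 at 3000 ppm (129.6 to 159.2). On the log2 scale the means were 4.474 ± 0.0858, 4.886 ± 0.435, 5.356 ± 0.197 and 5.533 ± 0.737 at 750, 1500, 3000 and 6000 ppm (SD, n = 4 each), with 4.443 ± 0.0736 in the phthalate controls (SD, n = 10). The changes called were 0.44 at 1500 ppm (adjusted p = 0.02465), 0.91 at 3000 ppm (adjusted p = 1.584e-07) and 1.09 at 6000 ppm (adjusted p = 8.711e-10). From 6000 against 750 ppm DEHP the change was 1.06 (0.76 to 1.35, adjusted p = 1.034e-06), and it was the only one of the 69 genes called in that comparison, against 0.971% of all genes called higher. The signal was dim: Cox6b2 was detected on 1, 3, 4 and 3 of 4 arrays from 750 to 6000 ppm and on 1 of 10 phthalate controls. The size depends on the scaling, with 0.14 to 1.41 over the alternatives at 6000 ppm, all above 0 and called. Cox6b1, the form of the same subunit found in most tissues, had a change of 0.33 at 3000 ppm (0.09 to 0.57, adjusted p = 0.08061).

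**Figure D2:**
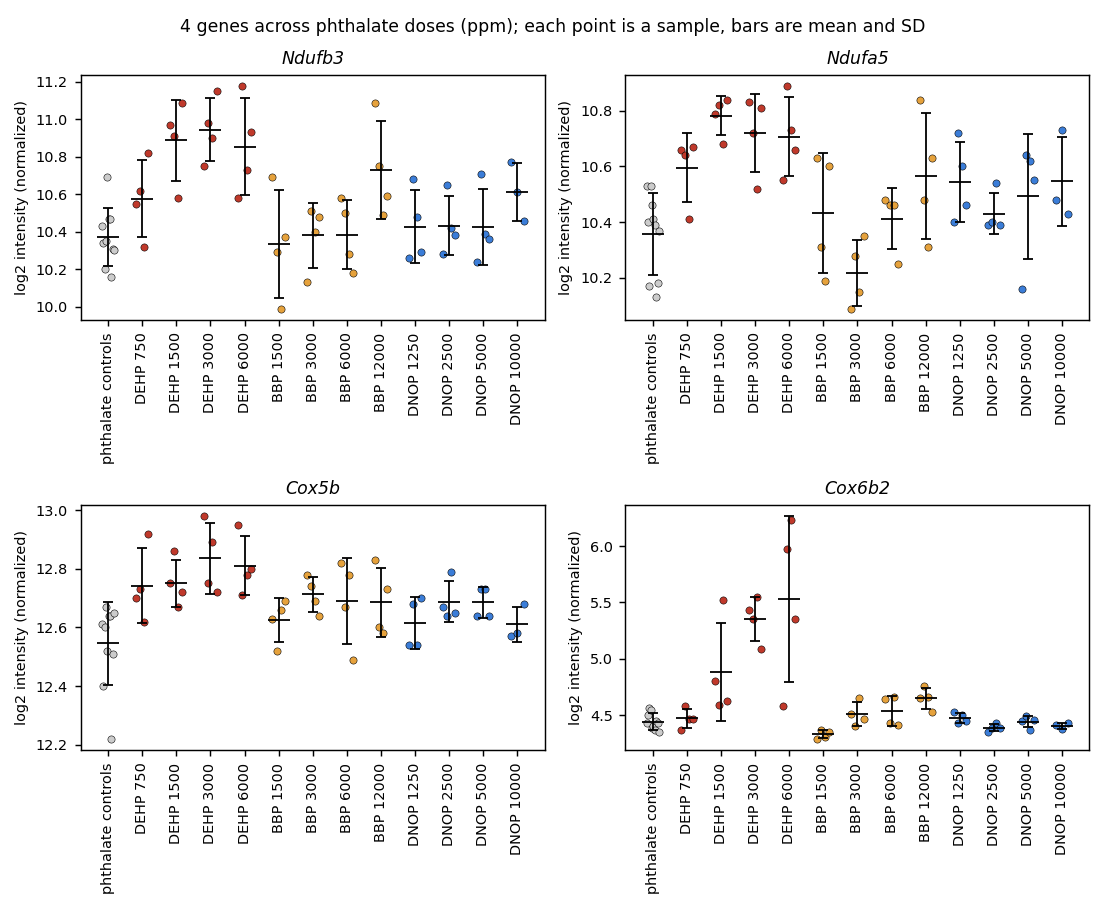
Normalized log2 intensity of Ndufb3, Ndufa5, Cox5b and Cox6b2 in each sample of the phthalate controls and of the 12 phthalate dose groups (ppm); points are samples and bars the mean and SD. The 4 samples at 3000 ppm DEHP lie above all controls in Ndufb3 (10.75 to 11.15), Cox5b and Cox6b2, and the Cox6b2 samples spread from 4.58 to 6.23 at 6000 ppm.

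The DEHP calls rested on few samples. Without 1 of the DEHP samples the count at 3000 ppm was 2 (replicate 1), 3 (replicate 3) or 3 (replicate 4) in place of 6, and at 6000 ppm it was 2 (replicate 2) or 3 (replicate 4) in place of 5, while leaving out control replicate 8 also gave 3. Ndufb3 and Cox6b2 at 3000 ppm stayed called under all 24 alternatives. Ndufs4 lost its call under 13 of 24, among them leaving out the 3 controls numbered 32 (adjusted p = 0.1019), and Ndufa5 at 3000 ppm lost it without DEHP replicate 1, 2 or 4 (0.32 to 0.36). Cox6b2 at 1500 ppm fell to a change of 0.23 (adjusted p = 0.3425) without DEHP replicate 3.

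By complex, the medians at 3000 ppm DEHP were 0.24 for complex I, 0.43 for complex II, 0.13 for complex III, 0.31 for complex IV and 0.22 for complex V. Calls at that dose fell in complex I (3 of 31), complex IV (2 of 14) and complex V (1 of 13). None of the 3 genes of complex II and none of the 5 of complex III was called at any dose of any compound. In complex II, Sdhb, the iron-sulfur subunit, had levels of 9.67 to 9.81 at 3000 ppm, against 9.08 to 9.72 in the phthalate controls, and a change of 0.43 (0.04 to 0.81, adjusted p = 0.1782). The membrane anchors Sdhc and Sdhd had 0.11 (-0.13 to 0.36) and 0.79 (-0.27 to 1.84), so the median of complex II rests on genes with wide intervals. In complex III the changes ran from 0.09 for the core subunit Uqcrc2 to 0.32 for the hinge subunit Uqcrh, and the small subunit Uqcr came closest to a call with 0.24 (0.07 to 0.40, adjusted p = 0.05497). At 6000 ppm the medians were 0.09, -0.04, 0.15, 0.14 and 0.07 for complexes I to V, the value of complex II lying between -0.04 and 0.26 over the 5 scalings.

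**Figure D3:**
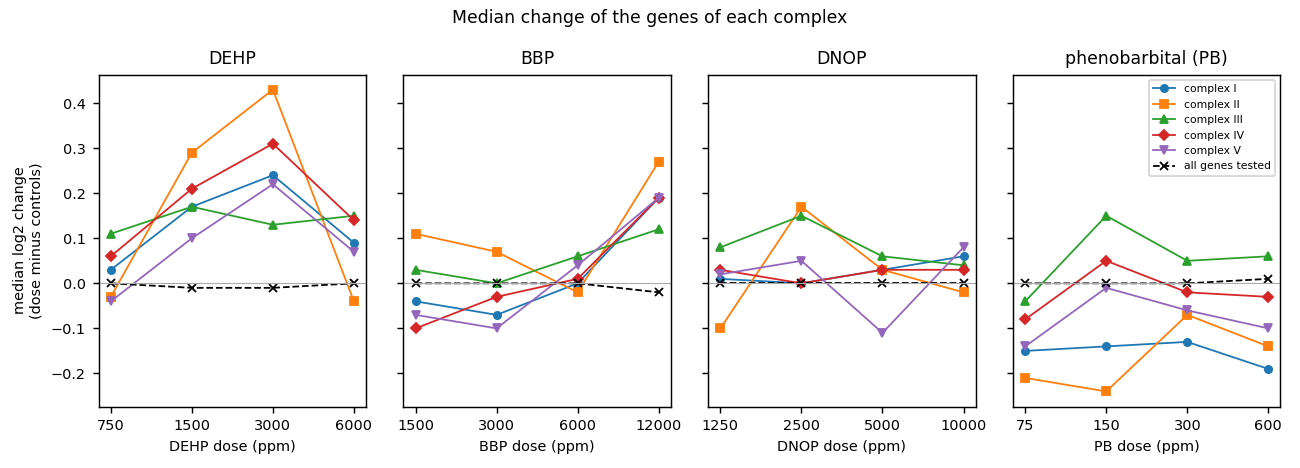
Median log2 change (dose minus controls) of the genes of each complex, against dose in ppm, in a panel for each compound; the dashed line is the median of all genes tested. All 5 complexes lie above the dashed line at 3000 ppm DEHP (0.13 to 0.43) and at 12000 ppm BBP (0.12 to 0.27), and complexes I, II and V lie below it at all 4 PB doses, which does not hold when each array is centred on its median.

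At the highest dose of BBP most of the changes were above 0, and no member was called. At 12000 ppm the median change was 0.18 with 57 of 69 above 0 (82.61%, against 46.35% of all genes), and the medians of complexes I to V were 0.19, 0.27, 0.12, 0.19 and 0.19. No member was called, against 2.95% of all genes called in either direction, and 8 of 69 had an unadjusted p under 0.05, against 14.6% of all genes. Leaving out 1 control gave 1 call in 4 of 10 cases (replicates 1, 3, 5 and 6). Ndufb3 had 10.49, 10.59, 10.75 and 11.09 at 12000 ppm BBP, against 10.16 to 10.69 in the controls, a change of 0.35 (0.11 to 0.59, adjusted p = 0.1009). Atp5g3 had a change of 0.28 (0.10 to 0.45, adjusted p = 0.06285). The largest changes, 1.05 in Sdhd and 1.05 in Ndufb9, had intervals that reached 0 and belong to genes with a wide spread in every group. At 1500, 3000 and 6000 ppm BBP the medians were -0.04, -0.03 and 0.01, with 0 members called (background 0.0%, 0.0% and 0.0795%) and 1, 2 and 2 of 69 at an unadjusted p under 0.05 by limma, against 3.52%, 3.84% and 8.73% of all genes. The sign at 1500 ppm depended on the scaling. Between 12000 and 1500 ppm BBP, a comparison without controls, the median was 0.22 with 60 of 69 above 0, 0 called by limma (background 1.02%) and 10 of 69 at an unadjusted p under 0.05, against 9.48%.

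DNOP, the isomer of DEHP with linear chains, gave medians of 0.02, 0.05, 0.03 and 0.06 from 1250 to 10000 ppm. No member was called at any dose, against 0.0%, 0.238%, 0.212% and 0.0618% of all genes, and 1, 3, 3 and 1 of 69 had an unadjusted p under 0.05 by limma, against 4.03%, 8.65%, 8.45% and 5.34%. Between 10000 and 1250 ppm the median was 0.05, with 0 called by limma (background 0.0%) and 0 at an unadjusted p under 0.05, against 2.0% of all genes.

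DEHP and BBP can be compared directly at the 3 doses they share. At 3000 ppm the 69 genes had a median difference of 0.29 (DEHP minus BBP), with 58 of 69 above 0 (84.06%, against 48.23% of all genes). At that dose 3 members were called higher and 1 lower under DEHP, against 2.09% and 2.02% of all genes. Ndufb3 was higher by 0.57 (0.29 to 0.85, adjusted p = 0.007299) and Ndufa5 by 0.5 (0.25 to 0.75, adjusted p = 0.007299), both with groups that did not overlap. Cox6b2 was higher by 0.85 (0.55 to 1.14, adjusted p = 5.05e-05). Atp5sl, whose product is no subunit of the ATP synthase, had a difference of -0.49 (-0.78 to -0.19, adjusted p = 0.03913). Its call was lost under 6 of 17 alternatives, with -0.14 (limma adjusted p = 0.836) when each array was centred on its median. Without BBP replicate 1 the count was 2.

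At 1500 ppm the median difference was 0.16 and 2 members were called higher (background 1.12%): Ndufb3 with 0.55 (adjusted p = 0.01813), and Cox6b2 with 0.56 (adjusted p = 0.02757). Cox6b2 was not well above background on any BBP array at that dose, so its level under DEHP was at least 1.343-fold higher, with means of 4.886 and 4.33. Both calls were fragile: leaving out any 1 sample of either group left 0 or 1 of them. At 6000 ppm the median was 0.10 and Cox6b2 alone was called, with 1.0 (0.70 to 1.29, adjusted p = 2.491e-06, background 1.67%). Ndufb3 there had a difference of 0.47 (0.19 to 0.75, adjusted p = 0.05414 over all genes), and Ndufa5 had 0.3 (0.05 to 0.55, adjusted p = 0.3232).

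Under phenobarbital the calls were nearly all lower than in the PB controls, among them 4 genes of complex V, and they depended on the PB controls and on the scaling. With quantile normalization 5 members were called lower at 75 ppm, 9 at 150 ppm, 5 at 300 ppm and 8 at 600 ppm, and 1 was called higher, at 600 ppm. Of all genes, 3.95%, 6.87%, 5.25% and 5.63% were called lower, and 4.33% higher at 600 ppm. The median changes of the 69 genes were -0.13, -0.05, -0.06 and -0.11. When each array was instead centred on its median, 0, 39, 31 and 24 members were called at 75, 150, 300 and 600 ppm, all of them higher. Of all 11324 genes, 19, 5268, 4050 and 5165 were called in either direction under that centring. The median of all genes itself shifted by 0.17, 0.55, 0.47 and 0.53. Relative to that shift, the median of the 69 genes was 0.01, 0.17, 0.21 and 0.08 at the 4 doses. A direction for the chain as a whole under PB is therefore not given. Under the same centring the members' medians for DEHP were 0.01, 0.22, 0.51 and 0.31, and 0.01, 0.21, 0.38 and 0.16 relative to the median of all genes.

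Atp5g2, one of the genes for ring subunit c, was called lower at every PB dose. Its levels were 8.08, 8.89, 9.0 and 9.78 at 75 ppm, 9.25 to 9.44 at 150 ppm, 9.19 to 9.45 at 300 ppm and 8.99 to 9.36 at 600 ppm, against 10.06, 10.16, 10.33 and 10.41 in the PB controls. None of the 16 treated samples reached the PB controls. The log2 changes were -1.31, -0.93, -0.94 and -1.08 from low to high dose, with adjusted p between 2.247e-07 and 0.0001681. The PB controls were themselves 0.82 above the phthalate controls (0.54 to 1.11, adjusted p = 0.0001574), whose levels were 8.98 to 9.65, and this was the only member called between the control groups, against 3.15% of all genes called higher. Against the phthalate controls, a comparison chosen after seeing the data, Atp5g2 was called at 75 ppm only, with -0.49 (adjusted p = 0.04952). The groups overlapped there. Its changes were -0.1, -0.12 and -0.26 at 150, 300 and 600 ppm (adjusted p of 0.8488, 0.8631 and 0.4948).

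Atp5d, the delta subunit of the F1 part, and Ndufa7, an accessory subunit of complex I, were called lower at all 4 PB doses. Atp5d had 9.48, 10.1, 10.55 and 10.78 at 75 ppm and 10.46 to 10.63 at 600 ppm, against 10.77 to 11.33 in the PB controls. Its changes were -0.76 (adjusted p = 0.0006471), -0.43, -0.44 and -0.45. Ndufa7 had 10.88 to 11.08 at 600 ppm, against 11.32 to 11.56 in the PB controls, and changes of -0.52, -0.49, -0.55 and -0.5. Atp5d was also called lower at 75 ppm against the phthalate controls, by -0.64 (adjusted p = 0.001445). Cox6a1 was called there too, with -0.57 (adjusted p = 0.02815). The groups overlapped for both, with SDs of 0.5736 and 0.6884 at 75 ppm against 0.09355 and 0.09157 in the phthalate controls. Replicate 2 at 75 ppm had a complex V mean of 9.85, the others 10.38 to 10.74. Of all genes, 2.68% were called in that comparison.

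Cox7a1, the heart and muscle isoform of subunit 7a, was called lower at 150, 300 and 600 ppm. Its levels at 600 ppm were 4.9, 5.2, 5.94 and 6.12, against 6.51, 6.57, 6.84 and 7.24 in the PB controls. The groups did not overlap, and the change was -1.24 (-1.77 to -0.72, adjusted p = 0.0009431), against -0.93 at 150 ppm and -0.97 at 300 ppm. It was called at 600 ppm against the phthalate controls too, with -0.86 (adjusted p = 0.02261, background 2.01%), although 2 of the 4 samples lay inside their range of 5.95 to 7.05 or within 0.1 of it. The other muscle isoforms, Cox6a2 and Cox8b, had changes of -0.1 and -0.04 at 600 ppm and were detected on 6 and 3 of the 77 arrays, while the summed signal of 6 skeletal muscle markers was 123.4 to 136.4 at 600 ppm, 118.2 to 140.6 in the PB controls and 119.1 to 1874 in the phthalate controls, with Myh4 never detected. The part of muscle RNA in the Cox7a1 values was not tested. No member was called at 150 or 300 ppm against the phthalate controls, where 0.168% and 0.733% of all genes were, and 8 of 69 had an unadjusted p under 0.05 by limma in each, against 10.5% and 10.3%.

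**Figure D4:**
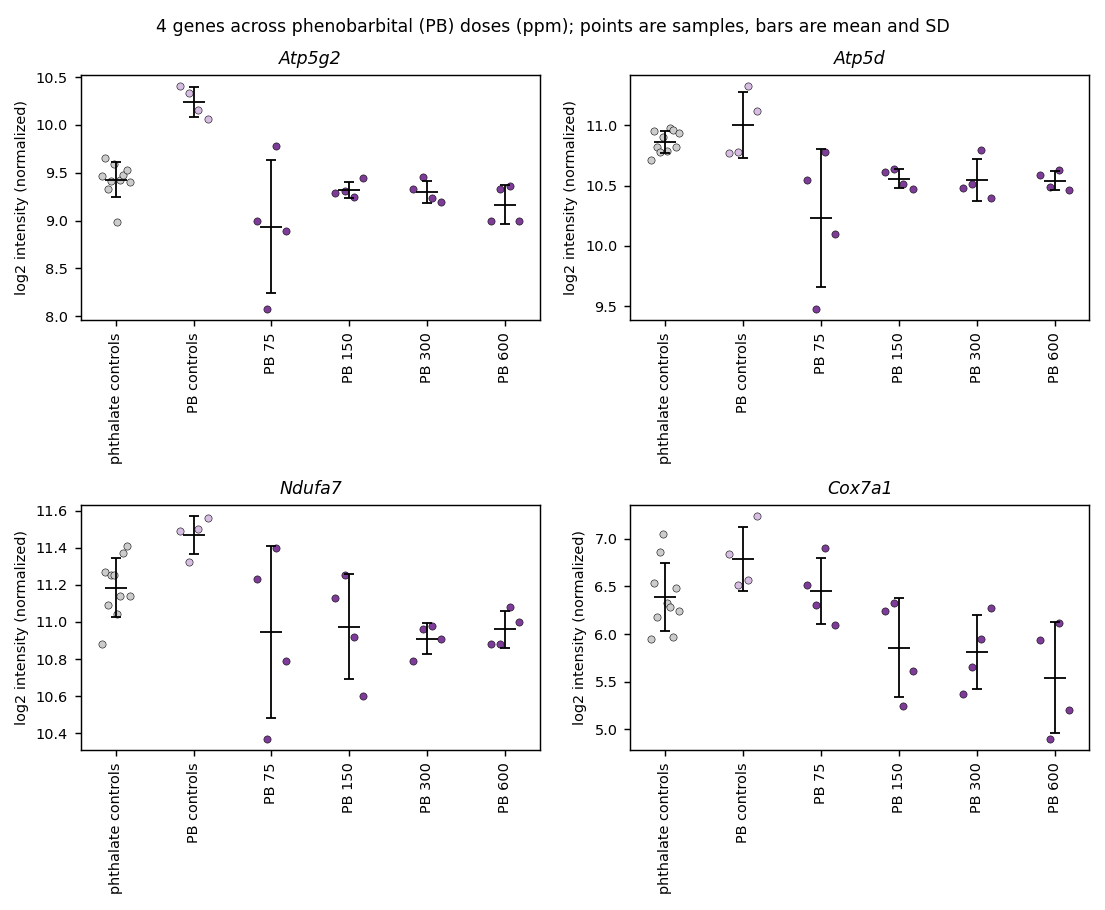
Normalized log2 intensity of Atp5g2, Atp5d, Ndufa7 and Cox7a1 in each sample of the phthalate controls, the PB controls and the 4 PB doses (ppm); points are samples and bars the mean and SD. The PB controls of Atp5g2 lie at 10.06 to 10.41, above both the PB doses and the phthalate controls (8.98 to 9.65).

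The other PB calls were in complex V (Atp5c1, the gamma subunit, at 150 and 600 ppm, and Atp5o at 75 ppm), in complex I (Ndufa3 at 150 and 300 ppm, Ndufb7 at 150 and 600 ppm, Ndufs6 and Ndufb8 at 150 ppm, Ndufa10 at 600 ppm) and among the genes that are no subunits. Atp5c1 had changes of -0.6 and -0.69 at 150 and 600 ppm, and Ndufa3 had -0.56 at both its doses. Atp5o rested on 1 sample at 4.94, the other 3 lying at 6.85 to 7.09 (adjusted p = 0.04947). Cox4nb, which is no subunit, was lower at 75 ppm by -0.44. Atp5sl was lower by -0.51 at 600 ppm, and Atp5s was the 1 gene called higher, by 0.69, its PB controls including 1 at 5.58. From 600 against 75 ppm, Ndufa10 alone was called, lower by -0.61 (adjusted p = 0.02391, background 0.565%). Without PB 75 ppm replicate 2 the count at 75 ppm was 2 and without replicate 1 it was 11, and at 150 ppm it was 1 without PB control replicate 4.

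A group of members moved together from sample to sample within the groups. The residual SD of the 69 genes had a median of 0.2316 and ran from 0.1276 to 0.9206, and 13 genes, chosen after their values were seen, had one over 0.5. Of these, 10 followed each other: Ndufb9, Ndufb2, Ndufb5 and Ndufb4 of complex I, Sdhd of complex II, Cox7b, Cox6c and Cox7a2 of complex IV, and Atp5a1 and Atp5e of complex V. Over the 77 samples, after the group means were taken off, their pairs had Pearson correlations of 0.81 to 0.95 with a median of 0.89. The mean level of these 10 ran from 6.28 to 8.81 among the 3 samples at 10000 ppm DNOP, and from 6.91 to 8.64 within the phthalate controls.

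Members of different complexes shared these movements, and so did genes outside the chain. Of all 11324 genes, 374 (3.303%) had a within-group correlation over 0.8 with the mean of the 10 genes and 16 had one under -0.8. The mean of the 10 had a within-group correlation of 0.5 with the percent of genes detected and 0.28 with the log2 mean signal, over 77 samples. What set the samples apart was not tested. None of the 13 was called in any comparison, which their choice by a wide residual SD made likely beforehand. The 10 had medians of 0.38 at 3000 ppm DEHP and 0.61 at 12000 ppm BBP, but -0.34 at 6000 ppm DEHP.

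**Figure D5:**
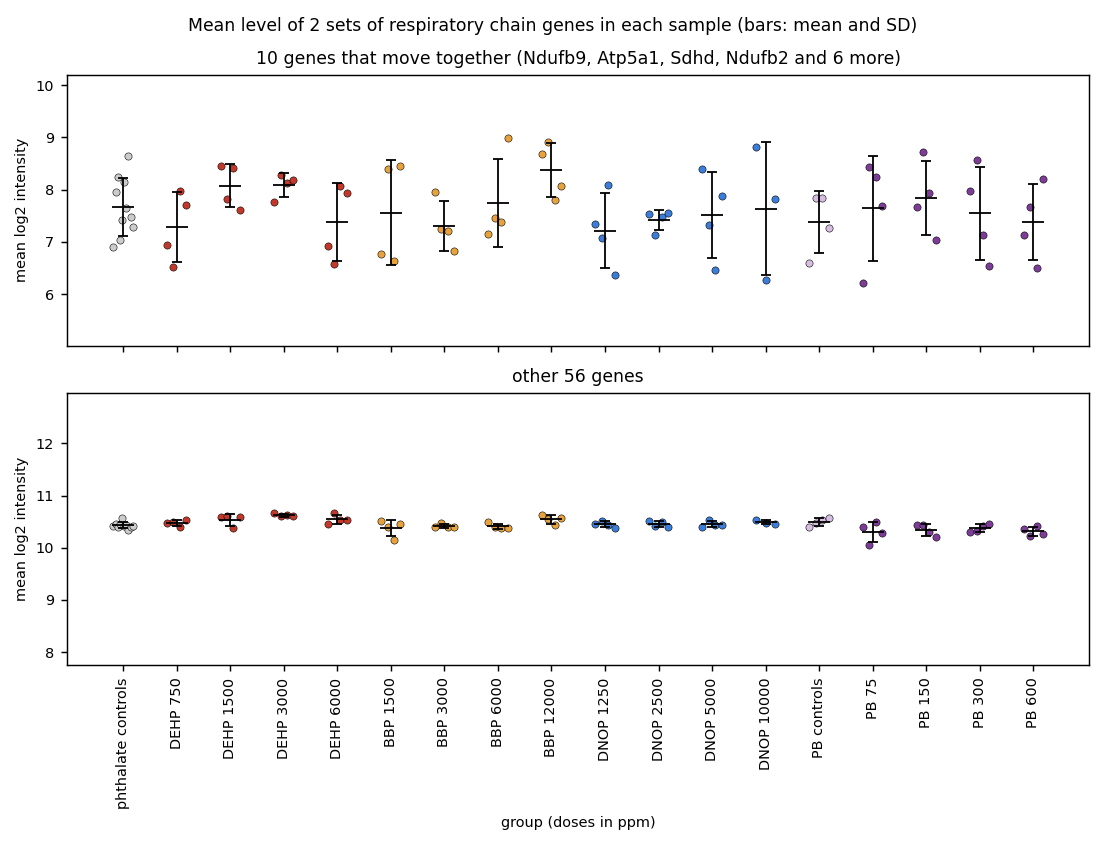
Mean log2 intensity of 2 sets of the genes in each sample of the 18 groups, on axes of equal span: 10 genes that moved together (upper panel) and the 56 genes with a residual SD up to 0.5 (lower panel); bars are the mean and SD. Samples of the phthalate controls spread from 6.91 to 8.64 in the upper panel and from 10.34 to 10.57 in the lower one.

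Without the 13 genes the shift at 3000 ppm DEHP stayed and was seen in every sample. Leaving them out did not remove all shared movement. Of the genes left, Atp5h and Ndufb10 had correlations of 0.88 and 0.83 with the mean of the 10. Uqcrh and Atp5l had 0.94 each with the mean of the other 3 of the 13. The mean level of the other 56 was 10.6, 10.6, 10.62 and 10.67 at 3000 ppm DEHP, against 10.34 to 10.57 in the phthalate controls, so that no treated sample overlapped the controls. Their median change was 0.20 there, 0.14 at 1500 ppm and 0.13 at 6000 ppm. At 12000 ppm BBP it was 0.12, against 0.18 with all 69. By complex, the medians at 3000 ppm DEHP without the 13 were 0.20, 0.27, 0.13, 0.25 and 0.19 for complexes I to V, and at 6000 ppm they were 0.12, 0.03, 0.15, 0.20 and 0.07.

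The targets of PPARA moved by far more than the chain. Of all genes, 2.53%, 4.45% and 5.26% were called higher at 1500, 3000 and 6000 ppm DEHP. At 12000 ppm BBP 2.95% were called in either direction. These shares are the background for the lists that follow. Of 19 PPARA target genes tested, 17, 19 and 17 were called higher at 1500, 3000 and 6000 ppm DEHP, with a median change of 1.61 at 3000 ppm, and 17 were called at 12000 ppm BBP, where no gene of the chain was. Ehhadh, the peroxisomal bifunctional enzyme of fatty acid oxidation, had a change of 4.94 at 3000 ppm DEHP and 4.33 at 12000 ppm BBP. Of 17 genes that carry or deliver electrons, 4 were called higher at 3000 ppm DEHP, among them Etfdh, which passes electrons from fatty acid oxidation to ubiquinone (1.08), Pdss1 (0.64) and Coq7 (0.49), both of ubiquinone synthesis. Etfdh is also among the 19 PPARA targets. Of 18 genes of the TCA cycle and pyruvate dehydrogenase, 3 were called higher, Suclg2 with 0.64, Suclg1 with 0.63 and Dlst with 0.51. Of 42 assembly factors, 3 were called higher, Cox17 (0.57), Cox19 (0.55) and Cox15 (0.44), which serve the copper and heme of complex IV. Of 5 subunit genes outside the name patterns, 2 were called higher, Ndufab1, the acyl carrier protein of complex I, with 0.92, and 2010107E04Rik with 0.40.

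Of 68 genes of the mitochondrial ribosome, which translates the subunits encoded in mitochondrial DNA, 7 were called higher at 3000 ppm DEHP with a median of 0.14, led by Mrpl16 (0.58), Mrpl47 (0.48) and Mrpl50 (0.45). At that dose 4.45% of all genes were called higher. Of 53 genes of the cytosolic ribosome 0 were called there, with a median of 0.06. Of 17 regulators of mitochondrial biogenesis 0 were called at 3000 ppm DEHP (median 0.16). At 150 ppm PB the regulators Tfb1m (0.96) and Mterfd1 (0.87) were called higher and the coactivator gene Ppargc1a (-1.23) lower. At the same PB dose 10 of the 53 cytosolic ribosome genes were called lower and 0 higher, led by Rpl38 (-0.71), where 6.87% of all genes were called lower. Of the same 53 genes 8 were called higher in the PB controls than in the phthalate controls, Rpl38 by 0.48 (adjusted p = 0.002144), against 3.15% of all genes. Between 150 ppm PB and the phthalate controls 0 were called, against 0.168% of all genes. Of 10 CAR targets 6 were called higher at 150 ppm PB, with Cyp2b10 at 7.05, and 8 at 3000 ppm DEHP. Of all genes, 4.45% were called higher at that DEHP dose. The share of all genes called higher at 150 ppm PB is not given here, so the higher counts at that dose stand without a background. These lists share the control samples of the chain's own comparisons. Marker genes of other cells were measured beside these results. At 3000 ppm DEHP, 1 of 6 hepatocyte markers (Fgb, -1.45) and 2 of 5 red cell markers (Hba-a1, -1.08, and Alas2, -0.62) were called lower. Of all genes, 8.45% were called in either direction at that dose. Only called markers are named here, and the changes of the others are not given. The summed signal of the red cell markers was 3729 to 5245 there, against 4981 to 13950 in the phthalate controls, with Epb4.2 not detected on any of those arrays. At 6000 ppm DEHP, Fgb (-1.27) and 1 of 6 stellate cell markers (Dcn, -0.51) were called lower, where 9.42% of all genes were called in either direction. The summed hepatocyte signal was 24120 to 25700 there, below every phthalate control (27640 to 36190), and the stellate cell sum was 2411 to 2691, against 2564 to 3885. At 3000 ppm DEHP the hepatocyte sum, 27390 to 31610, overlapped the controls. Such a sum adds linear signals, so its brightest genes weigh most, and it is no count of cells. Under PB the stellate cell sum was 2070 to 3823 at 150 ppm, 2744 to 3258 at 300 ppm and 2119 to 3020 at 600 ppm, against 3459 to 3921 in the PB controls. At 75 ppm it was 3371 to 4268. All PB samples at 300 and 600 ppm lay below the PB controls, while the phthalate controls (2564 to 3885) overlapped every PB dose. Against the PB controls, Lrat was called lower at 150 ppm (-1.14) and 600 ppm (-1.36), and Dcn at 600 ppm (-0.58). Of all genes, 6.87% and 5.63% were called lower at these doses, and 4.33% were called higher at 600 ppm. The sum of the Kupffer cell and macrophage markers was 1114 to 2193 at 600 ppm PB, against 970.8 to 1316 in the PB controls, with Emr1 called higher (1.59) and Cd5l never detected. The part of these cells in the changes of the chain was not tested.

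Over the 18 group means, single members followed the mean of the other members with Pearson correlations of -0.1979 to 0.9172 and a median of 0.5807; 40 of 69 were over 0.5 and 7 were under 0, among them Cox6a2, Ndufa8 and Sdhc. These points share samples and normalization, and the mean includes the 10 genes that moved together within the groups. Outside the 69 genes, the patterns most like their mean over the 18 group means were those of Timm10, a chaperone of mitochondrial import (0.935), D14Ertd449e (0.9154), Pltp, a phospholipid transfer protein (0.9018), Pebp1 (0.8976) and LOC100044087 (0.8958). The range of group means had a median of 0.5719 over the 69 genes and 0.532 over all genes tested, and the residual SD a median of 0.2316 and 0.2438.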

How the data were processed

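Per the labels' protocols, Trizol and a column clean-up with DNase gave total RNA from liver, which was turned into biotin cRNA and hybridised to Illumina arrays. Per the file headers, the deposited signal table holds an average intensity per gene and array, which was neither background corrected nor normalized between arrays, and a detection p-value for each intensity. The deposited matrix of normalized intensity, whose method is not given in the sources used here, served as an alternative.

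From the signals, the background of each array was taken from the detection p-values on the grid of its 798 negative control steps (50 bins), and the normal-exponential correction of limma 3.58.1 (R 4.3.3) was applied with an offset of 16, then log2 and quantile normalization. One limma fit held 18 group means of 77 samples, with the 62 label numbers as a random block (correlation 0.09925). Adjusted p-values are Benjamini-Hochberg over 11324 genes. Of 75 name matches, 70 were RefSeq symbols and 5 synonyms. The fit was tested on simulated data. The values of 1 member are not reported here, although it enters the counts and medians. The members, lists and tests were chosen with earlier results of these data known. The named genes were, per comparison, up to 4 called members in each direction by size of change (sample values for the largest per complex), up to 3 called genes of each other list, and the 5 genes most like the members' mean. Promoter sequences are from RefSeq (GRCm38.p6). The number of arrays limits the precision, and signal over background limits dim genes.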

Additional observations from a re-analysis of the deposited data

Results flagged for a closer look

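Among the 54 groups of samples behind the named members, 6 held a sample apart from the rest of its group. Chance also sets samples apart, and the groups of different members share their samples. PB control replicate 4 had an Atp5c1 level of 12.87, against 12.54 to 12.57 in the others. Phthalate control replicate 6 had an Atp5g2 level of 8.98, the others lying at 9.33 to 9.65. PB 75 ppm replicate 2 had an Atp5o level of 4.94, the others lying at 6.85 to 7.09. PB control replicate 1 had an Atp5s level of 5.58, the others lying at 6.51 to 6.6. PB 600 ppm replicate 1 had an Atp5sl level of 8.03, the others lying at 7.71 to 7.76. Phthalate control replicate 8 had an Ndufs4 level of 10.37, the others lying at 9.74 to 10.05.

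DEHP and BBP differed at a shared dose, by the limma test of the difference itself, in 4 members. Cox6b2 was higher under DEHP by 0.56 at 1500 ppm, 0.85 at 3000 ppm and 1.0 at 6000 ppm. Ndufb3 was higher by 0.55 at 1500 ppm and 0.57 at 3000 ppm, and Ndufa5 by 0.5 at 3000 ppm. Atp5sl had a difference of -0.49 at 3000 ppm, a call lost under 6 of 17 alternatives. The calls at 1500 ppm were lost under 9 of 17 for Cox6b2 and 6 of 17 for Ndufb3.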

How the results depend on the processing

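Under the 5 scalings the members' median kept its sign at every DEHP and DNOP dose and at 12000 ppm BBP. With each array centred on its median, that of all genes rose by 0.14, 0.21 and 0.07 at 2500, 5000 and 10000 ppm DNOP. The kept sign at these DNOP doses thus does not set the members apart from all genes under that centring. At the lowest DNOP dose the median of all genes was 0.005. At 12000 ppm BBP the members' median under the same centring was 0.34, against 0.06 for all genes. Centring each array on its median gave 0 called members at 1500 ppm DEHP, 0, 39, 31 and 24 at 75, 150, 300 and 600 ppm PB, 2 between 600 and 75 ppm PB, 0 between DEHP and BBP at 1500 ppm and 29, all lower, between PB controls and phthalate controls. Of all 11324 genes, it called 134 at 1500 ppm DEHP and 19, 5268, 4050 and 5165 at the PB doses. It called 377 between 600 and 75 ppm PB, 45 between DEHP and BBP at 1500 ppm and 4418 between the controls. That centring turned Atp5c1 and Atp5g2 at 150 ppm PB to 0.08 each, Ndufa3 to 0.14 at 150 ppm and 0.13 at 300 ppm, Ndufa7 at 300 ppm to 0.26, Atp5sl at 600 ppm to 0.56 and the members' median at 600 ppm PB to 0.6119. Array quality weights gave 11 members at 1500 ppm and 20 at 3000 ppm DEHP, 7 at 12000 ppm BBP, 1 between 12000 and 1500 ppm BBP, and 4, 16 and 2 between DEHP and BBP at 1500, 3000 and 6000 ppm. Calls rose over the whole array as well. Of all 11324 genes, those weights called 1279 and 1895 at these DEHP doses, 869 at 12000 ppm BBP and 230 between the BBP doses. Between DEHP and BBP they called 403, 1140 and 495. The cause was not tested. Without the 3 controls numbered 32, 1 member was called at 3000 ppm BBP and 2 at 12000 ppm. At 12000 ppm BBP, no background correction and no block gave 1 each and the deposited matrix 2. Between 600 and 75 ppm PB, no block gave 2, and between DEHP and BBP, no background correction gave 2 at 6000 ppm and the background of neqc 1 at 1500 ppm. Labels repeat replicate numbers across groups. In the phthalate dose groups, deviations from the group means correlated between samples of the same number with a median of 0.05065 (253 pairs, r from -0.6404 to 0.6613). Samples of different numbers had a median of -0.01576 (759 pairs, r from -0.7577 to 0.7374). Whether samples of the same number share a source cannot be told from these values, and controls and PB groups were not covered. With the replicate number as a block, 1 member was called at 12000 ppm BBP, 2 between 600 and 75 ppm PB and 2 between DEHP and BBP at 6000 ppm. Leaving out 1 sample at a time gave 0 to 2 members at 750 ppm DEHP (2 without control replicate 1), 3 to 4 at 1500, 2 to 7 at 3000 and 2 to 5 at 6000 ppm; 0 to 1 at 12000 ppm BBP and 0 to 1 between 12000 and 1500 ppm (1 without BBP 1500 ppm replicate 4); 2 to 11, 1 to 10, 2 to 6 and 3 to 10 at 75 to 600 ppm PB and 0 to 2 between 600 and 75 ppm; and 0 to 1, 2 to 4 and 1 to 2 between DEHP and BBP at 1500, 3000 and 6000 ppm (2 without BBP 6000 ppm replicate 1 or DEHP 6000 ppm replicate 1). PB counts changed by over 1.5 times without PB 75 ppm replicate 1, 2, 3 or 4, PB 150 ppm replicate 2, 3 or 4, PB 300 ppm replicate 1, PB 600 ppm replicate 1, 2, 3 or 4, or PB control replicate 1, 3 or 4.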
